A study of Mus musculus with 6 samples.

Results

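Hcn2, Hcn4, Cacna1d, Cacna1g and Cacna1h encode the pore-forming subunits of channels that open at negative voltages and help heart cells to fire on their own. They were chosen by gene name, and each name matched a single row, so they are 5 of the 44200 gene models in the count table (43629 of which carry a name). All 5 passed the filter on low counts and are among 14413 genes tested. Hearts of male C57BL/6 mice aged 22 months (old, n = 3) were compared with hearts of male C57BL/6 mice aged 2 months (young, n = 3), to find RNA levels that differ with age. All mice were fed normal chow, and the total RNA of each library came from heart tissue. The labels number the libraries within an age, here old 1 to 3 and young 1 to 3, without saying that each is a separate animal, so p-values measure the spread between these samples. They do not say which chambers a sample held, and their extraction text names another sample type, abbreviated NRVMs. Below, a heart means the sample of one library.

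The hyperpolarization-activated cyclic nucleotide-gated (HCN) channels conduct the funny current, an inward current that starts when the membrane becomes negative and that cyclic AMP speeds up. HCN4 is the main isoform of the sinoatrial node, the natural pacemaker, whereas HCN2 is also found in working atrial and ventricular muscle. Calcium entry adds to the pacemaker potential: CaV1.3, the product of Cacna1d, is an L-type channel that opens at more negative voltages than its ventricular relative CaV1.2, and the T-type channels CaV3.1 (Cacna1g) and CaV3.2 (Cacna1h) open briefly at still lower voltages. T-type channels are abundant in the fetal heart and in the adult are found mostly in nodal and conduction tissue.

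The HCN genes are shown by the coding bases of their shared pore filter, because their likeness bears on whether a read can be assigned to a single gene. The stretches below run 5′ to 3′ on the coding strand of the longest reading frame in the GENCODE M21 transcripts, and the capitals mark the codons of the glycine-tyrosine-glycine filter.
Hcn2: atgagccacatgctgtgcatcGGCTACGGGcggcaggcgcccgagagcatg
Hcn4: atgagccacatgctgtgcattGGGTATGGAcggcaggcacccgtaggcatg
Hcn3: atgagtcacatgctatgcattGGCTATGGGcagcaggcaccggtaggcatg
Of these 51 bases Hcn4 shares 43 with Hcn2, and Hcn3 shares 41. None of the 3190 words of 50 bases in the Hcn2 transcripts, and none of the 6069 in Hcn4, occurs in a transcript of another gene. For Cacna1d 540 of 12905 such words also lie in Chdh, whose exons overlap its 3′ end on the opposite strand over 589 bases. Cacna1g shared 19 of 10466 words with Cacna1i, and Cacna1h 110 of 9845 with Cacna1i or Tpsg1. Whether the counting used strand is not given in the sources used here, so reads from these overlaps cannot be told apart. Chdh held 1, 4 and 2 counts in old hearts and 3, 3 and 7 in young hearts, and Tpsg1 held 0, 2 and 3 in old hearts and 0 in each young heart.

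The starts of the HCN pair are shown because Hcn2 is the gene of the 5 whose RNA level differed with age, and Hcn4 is its nodal relative. Each sequence is the 250 bases upstream of the RefSeq start in GRCm38.p6, read on the plus strand, for Hcn2 from chr10:79716384-79716633 and for Hcn4 from chr9:58822699-58822948. The capitals mark the GC box GGGCGG on either strand.
Hcn2: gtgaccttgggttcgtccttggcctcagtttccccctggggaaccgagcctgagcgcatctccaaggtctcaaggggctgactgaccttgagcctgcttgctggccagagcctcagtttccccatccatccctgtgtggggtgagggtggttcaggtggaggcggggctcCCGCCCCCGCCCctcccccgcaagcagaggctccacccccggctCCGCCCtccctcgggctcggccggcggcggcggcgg
Hcn4: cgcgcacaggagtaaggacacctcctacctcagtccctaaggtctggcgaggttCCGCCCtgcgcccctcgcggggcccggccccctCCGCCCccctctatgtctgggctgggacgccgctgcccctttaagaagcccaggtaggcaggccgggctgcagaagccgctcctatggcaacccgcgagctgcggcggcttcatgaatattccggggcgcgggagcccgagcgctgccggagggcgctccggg
Hcn2 had 3 GC box matches and Hcn4 had 2, none overlapping, and 32.7% of 32851 RefSeq windows of this length held at least 1. The E-box letters CANNTG matched once in Hcn2 and not in Hcn4, against 66.2% of all windows. GATA, CCAAT and TATAAA, searched on both strands, matched in neither, against 53.6%, 33.8% and 12.4% of all windows. The G and C content was 70.4% for Hcn2 and 71.2% for Hcn4, where the median window had 52.4%.

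The libraries held 13673856 to 15583364 counted reads, and values below are counts relative to a common library size (CPM) after scaling by TMM factors, as mean ± SD with n = 3 per age. A log2 fold change is old over young ± an approximate SE, and its adjusted p comes from edgeR's quasi-likelihood test with Benjamini-Hochberg adjustment over all genes tested; a gene is called where this p is under 0.05. Heart muscle markers were abundant in every library: the 9 listed genes summed to 38787 to 42382 CPM in old hearts and 46571 to 52410 CPM in young hearts. Much of each sum came from Myh6, with 14672, 14091 and 11629 CPM in old hearts and 24711, 21416 and 21721 CPM in young hearts. The median log2 fold change of the 9 genes was 0.10, and 6 of them lay above 0. The library old 1 stood apart from old 2 and old 3. It scored 15.0 on the first principal component, against 45.9 and 48.0 for old 2 and old 3 and −38.3 to −33.4 for young hearts. The sum of its atrial markers was the highest, though Gja5, Nr2f2 and Nr2f1 of that list were not highest in old 1. The 10 listed atrial genes summed to 767, 238 and 339 CPM in old 1, old 2 and old 3, and to 338 to 493 CPM in young hearts. Results that rest on old 1 are therefore also given without it. Old 2 and old 3 were also less alike (Pearson r of log2 CPM across genes 0.978) than the young pairs were (0.985 to 0.988). The pairs of old 1 with old 2 and old 3 had r of 0.958 and 0.966.

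Of the 5 genes only Hcn2 was called, and it was lower in old hearts. At this threshold 15.1% of all genes tested were called, and 6.36% were called lower, so 1 of 5 is near the background. The groups did not overlap for Hcn2, which was lower in old hearts, or for Cacna1d and Cacna1h, whose values were higher. Such separation was seen in 37.3% of all genes tested. The 5 genes are placed by library in the plot of their levels.

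**Figure D1:**
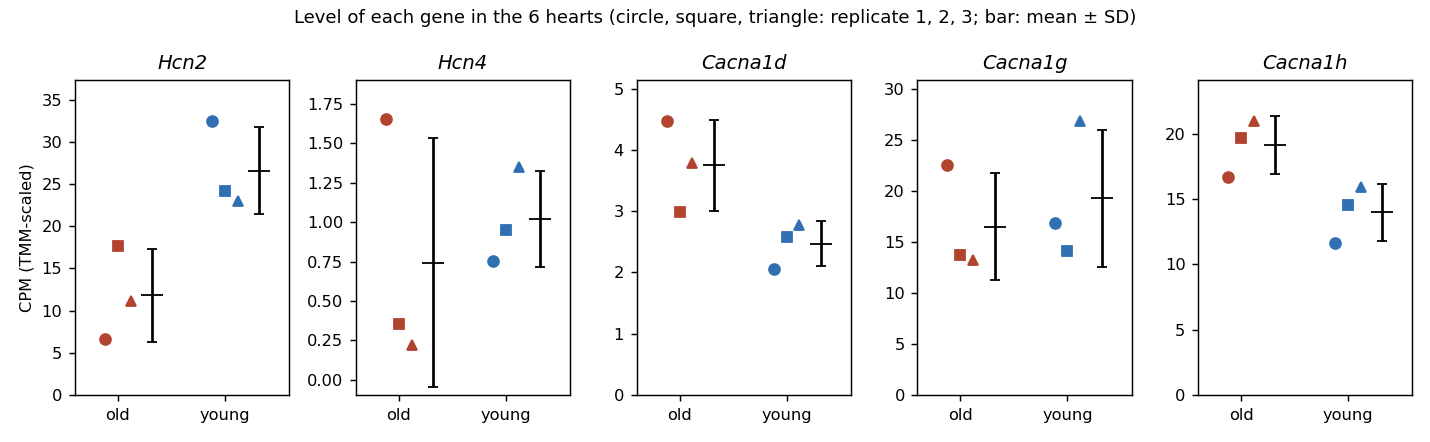
Level in CPM (TMM-scaled, vertical axis) of the 5 genes in old hearts (red, left) and young hearts (blue, right), with replicates 1, 2 and 3 as circle, square and triangle and the mean ± SD (n = 3) as a black bar. Hcn2 lies lower in every old heart than in any young heart, Cacna1d and Cacna1h lie higher, and Hcn4 is spread widely in old hearts, where its SD exceeds its mean.

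Hcn2 (ENSMUSG00000020331, GRCm38 chromosome 10, 79716634 to 79736108, plus strand) had 6.62, 17.7 and 11.1 CPM in the 3 old hearts and 32.5, 24.2 and 23.0 CPM in the 3 young hearts. Every old heart was below every young heart, and old 1 was the lowest. The mean was 11.8 ± 5.55 CPM in old hearts and 26.6 ± 5.16 CPM in young hearts. This is 0.443 times the young level, a log2 fold change of −1.18 ± 0.30 (edgeR adjusted p = 0.0319; 95% interval −1.86 to −0.49). The counts behind it were 108, 249 and 150 reads in old hearts and 473, 357 and 358 reads in young hearts. Without old 1 the log2 fold change was −0.88 (edgeR adjusted p = 0.00921). The call ended without old 3 and without young 1, 2 or 3, where the log2 fold change lay between −1.29 and −1.01 (edgeR adjusted p = 0.0718 to 0.127). In bulk tissue, fewer cells with a transcript and less of it per cell cannot be told apart.

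Hcn4 (ENSMUSG00000032338, chromosome 9, 58823412 to 58863175, plus strand), which carries most of the funny current in the sinoatrial node, was rare. It had 27, 5 and 3 counts in old hearts, or 1.65, 0.355 and 0.223 CPM, and 11, 14 and 21 counts in young hearts, or 0.756, 0.950 and 1.35 CPM. Old 1 held the highest value of all 6 libraries, while old 2 and old 3 held the lowest. The 95% exact Poisson interval, which covers counting error only, was 17.8 to 39.3 reads in old 1 and 0.619 to 8.77 reads in old 3, so these hearts differed by more than counting error. The mean was 0.744 ± 0.791 CPM in old hearts and 1.02 ± 0.304 CPM in young hearts, and the log2 fold change of −0.41 ± 0.66 did not pass (edgeR adjusted p = 0.702; 95% interval −1.88 to 1.07). Without old 1 it was −1.79 and passed (edgeR adjusted p = 0.0344), without old 3 it was −0.000117, and 37.9% of 14702 genes passed in the comparison without old 1.

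Hcn3, a mainly neuronal relative, did not pass the filter. Hcn3 had 1, 13 and 0 counts in old hearts and 5, 10 and 1 in young hearts, and the count of 0 allows up to 0.223 CPM (3 counts, counting error only). Per kilobase of annotated exon Hcn2, Hcn3 and Hcn4 summed to 2.36, 5.81 and 3.52 CPM in old hearts and 10.4, 7.90 and 7.45 CPM in young hearts. These sums largely follow Hcn2. Hcn4 was 11.5%, 0.998% and 1.03% of this sum in old hearts and 1.19%, 1.97% and 2.97% in young hearts. The groups overlapped, with 4.50% ± 6.04 in old hearts and 2.04% ± 0.890 in young hearts (exact two-sided permutation p = 1, also 1 adjusted over 3 such shares; the smallest p that 3 against 3 allow is 0.1). The mean share was higher in old hearts by 2.46 percentage points, and the difference was −1.02 points without old 1.

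Cacna1d (ENSMUSG00000015968, chromosome 14, 30039939 to 30491455, minus strand), whose L-type channel supports sinoatrial firing in mice, had 4.47, 2.98 and 3.78 CPM in old hearts and 2.06, 2.58 and 2.77 CPM in young hearts. Each old heart was above each young heart, but old 2 and young 3 were close, at 42 and 43 counts before scaling. The log2 fold change of 0.60 ± 0.27 did not pass (edgeR adjusted p = 0.155; 95% interval −0.00232 to 1.20). It lay between 0.45 and 0.74 when any 1 library was left out and passed in none of these comparisons.

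Cacna1h (ENSMUSG00000024112, chromosome 17, 25374285 to 25433783, minus strand), a T-type gene, had 16.7, 19.7 and 21.0 CPM in old hearts and 11.6, 14.5 and 15.9 CPM in young hearts. The groups did not overlap, with the gap between old 1 and young 3 the narrowest. The mean was 19.1 ± 2.23 CPM in old hearts and 14.0 ± 2.19 CPM in young hearts, a log2 fold change of 0.45 ± 0.17 that did not pass (edgeR adjusted p = 0.101; 95% interval 0.07 to 0.83, not adjusted for the number of genes). It was 0.54 and passed without old 1 (edgeR adjusted p = 0.0209).

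Cacna1g (ENSMUSG00000020866, chromosome 11, 94408391 to 94474198, minus strand), the T-type gene most tied to nodal conduction in mice, had 22.6, 13.8 and 13.3 CPM in old hearts and 16.8, 14.1 and 26.9 CPM in young hearts. The groups overlapped, with 1 high library at each age, old 1 and young 3. The log2 fold change was −0.22 ± 0.28 (edgeR adjusted p = 0.616; 95% interval −0.84 to 0.40), and it was 0.08 without young 3. Its 368 counts in old 1 (95% exact Poisson interval 331 to 408) and 194 in old 2 (168 to 223) differed by more than counting error.

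Cacna1i, the third T-type gene, which is mainly neuronal, had 0, 2 and 0 counts in old hearts and 2, 2 and 1 in young hearts and was not tested. Per kilobase, Cacna1h made up 43.4%, 59.6% and 62.1% of the T-type sum in old hearts and 41.5%, 51.4% and 38.0% in young hearts. Old 2 and old 3 were above all young hearts, whereas old 1 lay among them. The mean was 55.0% ± 10.1 in old hearts and 43.6% ± 6.96 in young hearts, a difference that did not pass (exact two-sided permutation p = 0.2, 0.6 adjusted over 3 shares). The difference was 11.4 percentage points, and 17.2 points without old 1. The T-type sum itself was 3.59 ± 0.294 CPM per kilobase in old hearts and 3.35 ± 0.815 in young hearts.

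Levels of different genes were compared as CPM per kilobase of annotated exon. Among the 5 genes Hcn2 was the most abundant on this scale, at 3.69 ± 1.74 in old hearts and 8.32 ± 1.61 in young hearts. In old 1 alone Hcn2 (2.07) lay below Cacna1g (2.22). Cacna1g followed with 1.63 ± 0.515 in old hearts and 1.90 ± 0.665 in young hearts, and Cacna1h with 1.96 ± 0.228 in old hearts and 1.44 ± 0.224 in young hearts. The order of these 2 genes was not fixed: Cacna1h was above Cacna1g in 2 of 3 old hearts and in 1 of 3 young hearts. Cacna1d (0.297 ± 0.0593 in old hearts, 0.196 ± 0.0290 in young hearts) was above Hcn4 (0.122 ± 0.129 in old hearts, 0.167 ± 0.0497 in young hearts) in all 3 old and in 2 of 3 young hearts, where young 3 had nearly equal values. Cacna1c, which encodes the main ventricular L-type channel CaV1.2, stood above all 5 genes at 23.1 ± 2.12 in old hearts and 16.8 ± 1.25 in young hearts. Cacna1d made up 1.26% ± 0.161 of the sum of Cacna1c and Cacna1d in old hearts and 1.16% ± 0.237 in young hearts (exact two-sided permutation p = 0.7, 1 adjusted over 3 shares), and without young 1 the difference had the opposite sign.

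**Figure D2:**
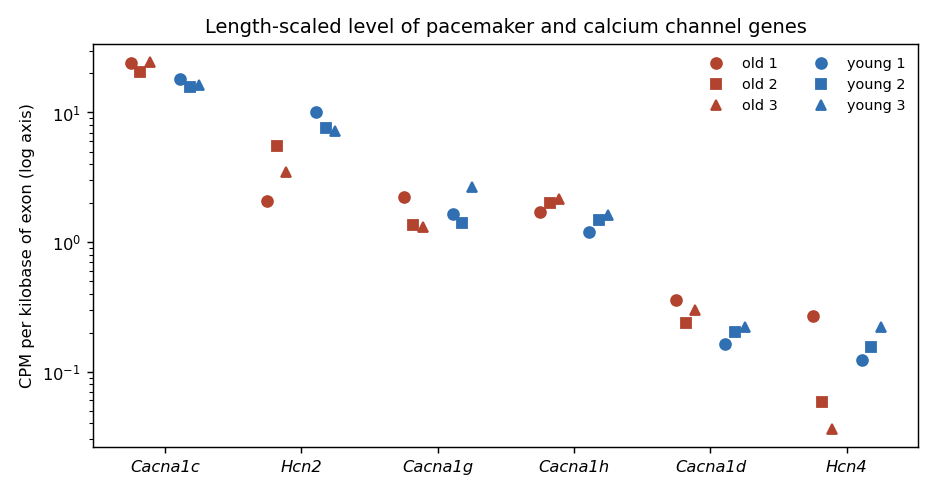
Level of 6 channel genes as CPM per kilobase of annotated exon (log axis) in old hearts (red) and young hearts (blue), with replicates 1, 2 and 3 as circle, square and triangle. Cacna1c lies above the others in every heart, Hcn2 is next in all but old 1, and Hcn4 of old 2 and old 3 is the lowest.

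Of 3 partners of the HCN channels that could be tested 2 were higher in old hearts. For comparison, 15.1% of all genes tested were called, and 1257 of 14413 were higher. In a list of 7 HCN genes and partners, 5 were tested, 2 were higher, Hcn2 was lower, and the median change was 0.38 on the log2 scale (−0.16 without a filter on low counts), against 0.02 over all genes tested. Pex5l, which encodes the HCN trafficking subunit TRIP8b of neurons, rose to 1.59, 0.993 and 1.93 CPM in old hearts, against 0.481, 0.339 and 0.386 CPM in young hearts (log2 fold change 1.88 ± 0.44, edgeR adjusted p = 0.0219). Lrmp, whose product lowers the response of HCN4 to cyclic AMP, rose to 6.92, 6.67 and 4.82 CPM in old hearts, against 2.96, 3.53 and 3.15 CPM in young hearts (0.93 ± 0.23, edgeR adjusted p = 0.0268). Mrvi1, which encodes the related protein IRAG, did not pass (0.38 ± 0.20, edgeR adjusted p = 0.216), and Kcne2, an accessory subunit, had at most 1 count in a library. No gene of this list was called without young 1, 2 or 3. Without old 1 its genes were 3 higher and 2 lower, where 37.9% of all genes tested were called. The call of Lrmp also ended without old 2 and on the FPKM scale, and that of Pex5l without old 3.

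Among 10 pore subunits of voltage-gated calcium channels 6 were tested, 2 were higher and 0 lower, and the median change was 0.49 on the log2 scale. These 10 include Cacna1d, Cacna1g and Cacna1h. Of all genes tested 15.1% were called. Cacna1s, the L-type subunit of skeletal muscle, rose to 6.68, 10.4 and 6.75 CPM in old hearts, against 3.64, 2.24 and 3.93 CPM in young hearts (1.27 ± 0.28, edgeR adjusted p = 0.0183). Cacna1c rose to 513, 437 and 517 CPM in old hearts, against 385, 334 and 348 CPM in young hearts (0.46 ± 0.13, edgeR adjusted p = 0.0477). The call of Cacna1c was close to the threshold and ended with RLE or upper-quartile factors, without a filter, on the FPKM scale and with the replicate block (adjusted p up to 0.0822), and without old 3. Cacna1a, a neuronal subunit, did not pass (0.52 ± 0.24, edgeR adjusted p = 0.171), and Cacna1b, Cacna1e, Cacna1f and Cacna1i were not tested. Neither call held without young 1, 2 or 3, and that of Cacna1s also ended on the FPKM scale. Without old 1 there were 4 higher and 0 lower, where 37.9% of all genes tested were called.

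Auxiliary subunits set the surface level and gating of L-type channels. Of 16 listed, 7 were tested and 0 were called by edgeR, with 1 at an unadjusted p under 0.05 and a median log2 fold change of 0.50. DESeq2 called 1, limma-voom called 0, and edgeR called 3 higher without old 1, where 37.9% of all genes tested were called. Cacnb1 (0.83 ± 0.27, edgeR adjusted p = 0.0709) and Cacnb3 (0.59 ± 0.27, edgeR adjusted p = 0.160) had the smallest p. Cacnb2, the main β subunit of heart muscle, had 23.7, 46.2 and 61.3 CPM in old hearts and 44.3, 29.2 and 40.4 CPM in young hearts. Cacna2d1, the main α2δ subunit there, had 124, 86.3 and 96.5 CPM in old hearts and 109, 102 and 110 CPM in young hearts. Both overlapped between ages (log2 fold changes of 0.20 ± 0.30 and −0.06 ± 0.15).

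**Figure D3:**
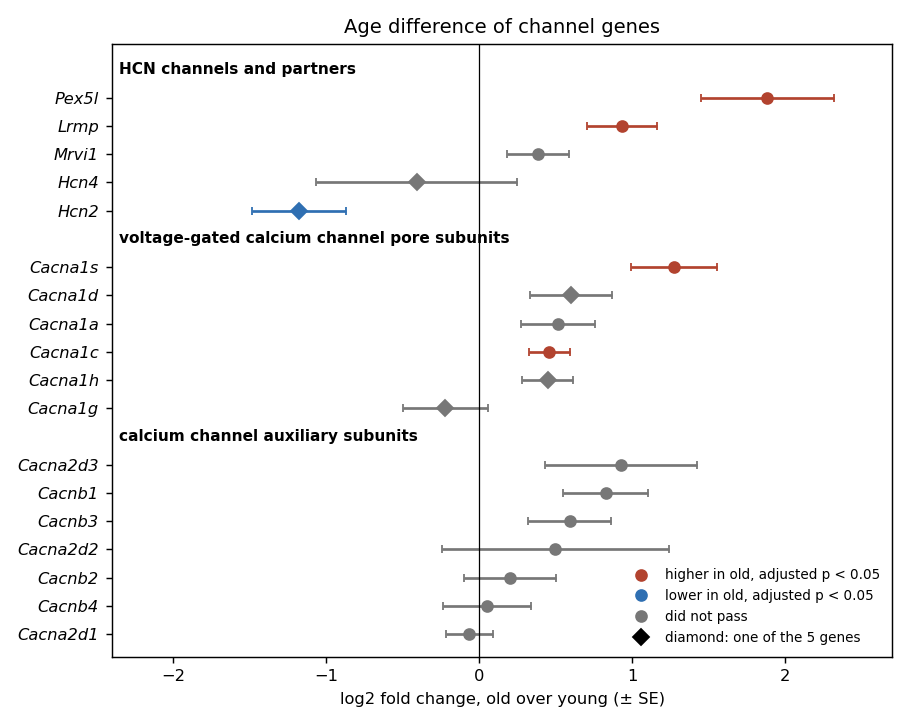
Log2 fold change of old over young (± SE, horizontal axis) for tested HCN genes and partners, calcium channel pore subunits and auxiliary subunits, with the 5 genes as diamonds. Hcn2 is called lower (blue), Pex5l, Lrmp, Cacna1s and Cacna1c are called higher (red), and the genes in grey did not pass.

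Cyclic AMP formed through β-adrenergic receptors opens HCN channels, while muscarinic receptors act against it and open the potassium channel of Kcnj3 and Kcnj5. Of 19 listed genes 18 were tested, 3 were lower and none was higher, and their median was −0.22 on the log2 scale. Over all genes tested 15.1% were called and 6.36% were called lower. Gnas, which encodes the stimulatory G protein α subunit, fell to 20.2, 16.7 and 21.0 CPM in old hearts, against 63.0, 55.1 and 66.9 CPM in young hearts (−1.68 ± 0.14, edgeR adjusted p = 0.000886). Prkaca, the catalytic subunit of protein kinase A, fell to 84.0, 89.7 and 74.2 CPM in old hearts, against 159, 142 and 147 CPM in young hearts (−0.85 ± 0.13, edgeR adjusted p = 0.00482). Gnas and Prkaca were called with each library left out. Kcnj5, named after its values were seen, was the other (−0.73 ± 0.19), and its call ended without any 1 library other than old 1. Without old 1 the list had 3 higher and 5 lower, where 37.9% of all genes tested were called.

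In the sarcoplasmic reticulum calcium clock, which feeds the pacemaker potential through the sodium-calcium exchanger, 11 genes were tested, 1 was higher and 2 lower. The share called over all genes tested was 15.1%. Slc8a1, the exchanger gene, rose to 33.7, 21.3 and 39.7 CPM in old hearts, against 12.2, 12.8 and 17.4 CPM in young hearts (1.16 ± 0.24, edgeR adjusted p = 0.0134). Atp2a2, the calcium pump of the reticulum, had a log2 fold change of −0.58 ± 0.14 (edgeR adjusted p = 0.0231). The count was 1 higher and 4 lower without old 1, where 37.9% of all genes tested were called. The count was 0 without old 3, young 1 or young 2, 1 higher and 0 lower without young 3, and 1 of each without old 2.

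Transcription factors of pacemaker and working muscle were lower where they passed with all 6 libraries. Of 13 listed 12 were tested, 0 were higher and 4 lower (median −0.36). By comparison, 15.1% of all genes tested were called and 6.36% were called lower. Of the list 0 passed without old 3, young 1 or young 2, 1 was lower without young 3 and 2 were lower without old 2. Without old 1 there were 1 higher and 8 lower, where 37.9% of all genes tested were called. Nkx2-5, which holds working muscle out of the pacemaker fate, fell to 35.6, 51.2 and 35.8 CPM in old hearts, against 76.6, 70.7 and 64.6 CPM in young hearts (−0.79 ± 0.17, edgeR adjusted p = 0.0154). Hand2 (−0.54 ± 0.12), Mef2c (−0.58 ± 0.14) and Irx3 (−0.54 ± 0.14) were the others, the last 2 of them named after their values were seen; the call of Irx3 also ended with the replicate block. The nodal factors did not pass: Tbx3 had 19.9, 45.2 and 35.0 CPM in old hearts and 24.0, 23.5 and 23.5 CPM in young hearts, and Shox2 had 1.04, 0.851 and 1.86 CPM in old hearts and 0.619, 0.746 and 0.644 CPM in young hearts. Isl1 held at most 2 counts in a library. Rest, a repressor that restrains Hcn2, Hcn4 and Cacna1h in the healthy mouse ventricle, had 14.3, 8.65 and 10.7 CPM in old hearts and 13.1, 15.6 and 14.1 CPM in young hearts (−0.35 ± 0.20, edgeR adjusted p = 0.264).

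Markers of the sinoatrial node and conduction system varied between hearts of the same age. Of 17 listed 13 were tested, and 0 were called by edgeR, by DESeq2 or by limma-voom, with 0 at an unadjusted edgeR p under 0.05 and a median log2 fold change of 0.27. Without old 1 edgeR called 2 higher and 1 lower, where 37.9% of all genes tested were called. Cntn2 and Cpne5, which mark conduction cells, were singled out after their values were seen. Cntn2 had 29.3, 7.73 and 1.78 CPM in old hearts and 3.50, 1.83 and 17.3 CPM in young hearts. Cpne5 had 4.23, 0.922 and 0.0742 CPM in old hearts and 0.550, 0.0678 and 1.67 CPM in young hearts. Old 1 and young 3 held the 2 highest values of both, and also of Hcn4 and Cacna1g. The list was divided on this point. Among its other tested genes, Smoc2, Ntm and Igfbp5 also had their 2 highest values in old 1 and young 3. Gjc1, Bmp4, Id2, Scn10a, Kcne1, Shox2, Tbx3 and Tbx18 did not, and Tbx3, Bmp4 and Scn10a were lowest in old 1. Kcne1 was high in young 3 only, with 2.88, 2.34 and 2.00 CPM in old hearts and 2.89, 2.85 and 7.66 CPM in young hearts. The part of conduction tissue in the levels of Hcn4 and Cacna1g was not tested.

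Some atrial markers varied as much. Of 10 listed 9 were tested, and 0 were called by edgeR, DESeq2 or limma-voom, with 1 at an unadjusted edgeR p under 0.05. Without a filter on low counts edgeR called 3 of them, where 1675 genes were called higher and 1182 lower over all genes. It called 1 lower without old 1, where 37.9% of all genes tested were called. It called 1 higher without old 2, where 938 genes were called higher and 603 lower over all genes. Myl7, the atrial light chain, had 54.0, 2.06 and 9.57 CPM in old hearts and 0.137, 13.8 and 1.93 CPM in young hearts. Myl4 had 87.3, 6.10 and 13.7 CPM in old hearts and 3.85, 20.3 and 10.9 CPM in young hearts, and Sln, the atrial inhibitor of the calcium pump, had 23.0, 0.567 and 4.08 CPM in old hearts and 0.137, 2.92 and 0.257 CPM in young hearts. Old 1 was the highest in all 3, as it was for Hcn4, and it was the lowest for Hcn2. Pam, Dkk3 and Nppa were also highest in old 1, but other genes of the list were not. Gja5 had 10.4, 12.5 and 10.8 CPM in old hearts and 7.97, 7.80 and 11.1 CPM in young hearts. Nr2f2 (13.8 CPM) and Nr2f1 (3.13 CPM) had their lowest values of all libraries in old 1. Nppa, the atrial natriuretic peptide gene, had 145, 13.5 and 57.1 CPM in old hearts and 44.9, 67.1 and 112 CPM in young hearts. Ventricular markers summed to 16547, 20184 and 17423 CPM in old hearts and 14454 to 16724 CPM in young hearts. Most of each sum came from Myl2 and Myl3. Lbh, named after its values were seen, had 188, 79.1 and 96.6 CPM in old hearts and 192, 150 and 187 CPM in young hearts. Of 6 ventricular markers tested 2 were called, against 15.1% of all genes tested. Myl2 was higher (0.58 ± 0.15) and Fhl2 lower (−0.61 ± 0.15), calls that ended without any 1 library other than old 1. The call of Myl2 also ended with the replicate block and on the log2(FPKM + 0.1) scale. The part of atrial tissue in the Hcn2 result was not tested.

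**Figure D4:**
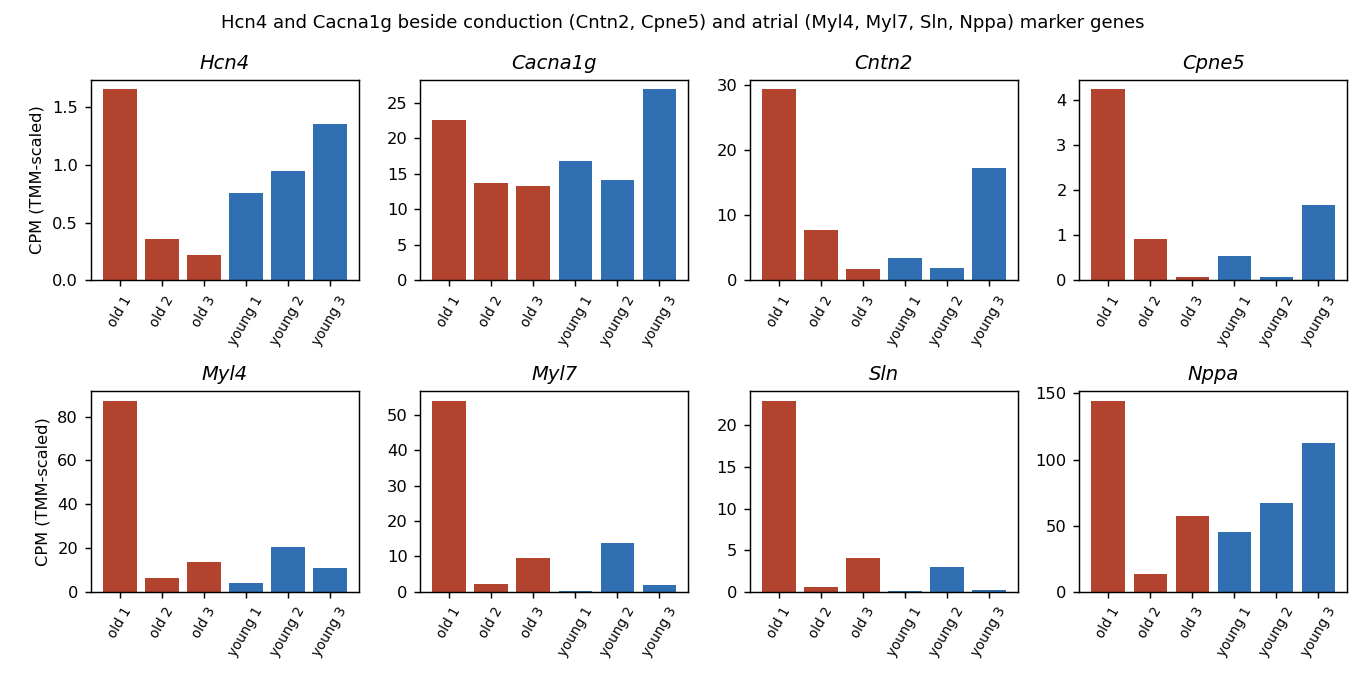
CPM (TMM-scaled, linear axes from 0) of Hcn4, Cacna1g, conduction markers Cntn2 and Cpne5, and atrial markers Myl4, Myl7, Sln and Nppa in each old heart (red) and young heart (blue). Old 1 is the highest library in all panels except Cacna1g, where young 3 is the highest. The markers shown are a part of each list, and other listed genes, such as Tbx3 and Nr2f2, were lowest in old 1.

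Neuronal and glial markers were mostly rare. Of 14 listed 5 were tested, and 1 was higher, Uchl1 (0.67 ± 0.17). Over all genes tested 15.1% were called, so 1 of 5 is near the background. The call of Uchl1 ended without old 3 or any 1 young library and with the replicate block. Among genes named after their values were seen, Chat and Slc18a3, which mark cholinergic neurons, had 0 counts in all libraries. Th, of noradrenergic neurons, had at most 1 in a library. Dbh, Sox10 and S100b of the same list were present, were tested and did not pass. Dbh had 24, 37 and 10 counts in old hearts and 43, 15 and 53 in young hearts (edgeR adjusted p = 0.454). The list summed to 21.4 to 30.1 CPM in old hearts and 15.9 to 19.96 CPM in young hearts. Most of each sum came from Uchl1, with 21.3, 15.5 and 18.2 CPM in old hearts and 10.4, 11.7 and 12.4 CPM in young hearts. Tubb3, a neuronal tubulin, had 2.82, 0.567 and 0.891 CPM in old hearts and 0.619, 0.746 and 0.708 CPM in young hearts, and its groups overlapped (edgeR adjusted p = 0.242). The part of nerve tissue in the level of Pex5l, Cacna1a or Cacna1d was not tested.

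For each of the 5 genes the most similar profiles were found by the root mean square difference of log2 CPM over the 6 libraries, after centring on the young mean. For Hcn2 these were Mmp15 (difference 0.256 log2 units), a membrane-bound matrix protease, and Lrrc4b (0.287). Mmp15 was lower in old hearts (−1.05 ± 0.21), a direction that follows from its choice by likeness to Hcn2 and is no separate result. For Hcn4 they were Hmgn2-ps1 (0.256), a pseudogene by its name, and Rassf10 (0.263). Cacna1d was closest to Sulf2 (0.0731) and Ly86 (0.0775), Cacna1h to Arhgef10 (0.0627) and Myl6 (0.0630), and Cacna1g to C5ar2 (0.0847) and Fam35a (0.159). The call of Mmp15 ended without young 1 or young 2 (edgeR adjusted p up to 0.0612).

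With all 6 libraries, Hcn2 was called under each of the 9 other settings of scaling, filter, tool, unit and block, with log2 fold changes of −1.29 to −1.04 (adjusted p = 0.000518 to 0.0461). None of the other 4 genes was called under any of these settings in which it could be tested, as the plot of settings shows. Leaving out libraries had more effect than the settings did. Without old 1 a total of 3 of the 5 genes were called, Hcn2 and Hcn4 lower and Cacna1h higher, against 37.9% of all genes tested in that comparison, and without old 3 or any 1 young library none was called.

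**Figure D5:**
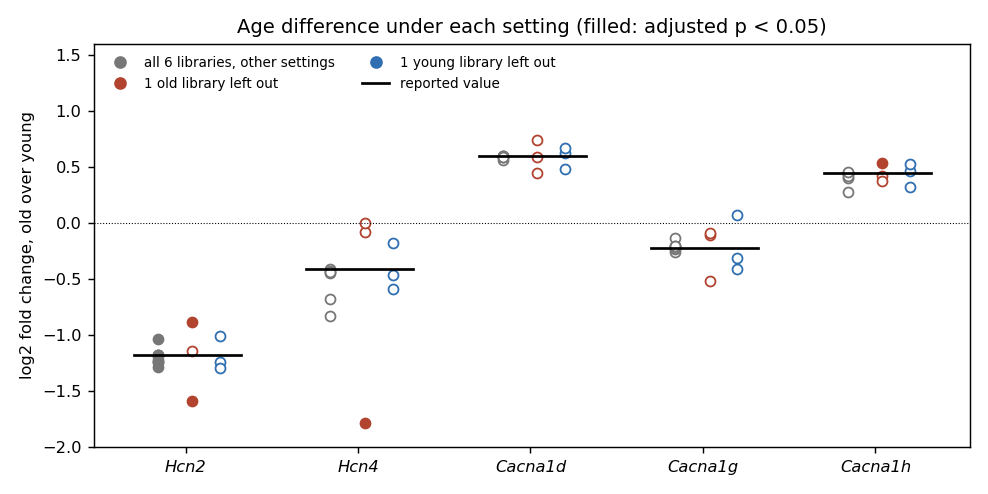
Log2 fold change of old over young for the 5 genes under each alternative: other settings with all 6 libraries (grey), 1 old library left out (red) and 1 young library left out (blue), filled where the adjusted p was under 0.05, with the reported value as a line. Hcn2 lies below 0 throughout, Hcn4 ranges from −1.79 to −0.000117, and Cacna1d and Cacna1h lie above 0 throughout.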

How the data were processed

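Per the labels, RNA of 3 heart samples from old mice and 3 from young mice was sequenced. Reads were aligned by HISAT2 and counted by featureCounts of Subread against GRCm38.p6, per the submitters' processing notes, and the deposited counts are whole reads per gene. FPKM values that the authors deposited cover 13170 genes, with Hcn2, Cacna1g and Cacna1h but without Hcn4 or Cacna1d. No source used here gives the tools' versions, the annotation release, or how strand and multi-mapped reads were treated.

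Rows without a gene name (571, 0.295% to 0.368% of reads) were left out. In R 4.3.3, edgeR 4.0.16 filtered genes with filterByExpr, scaled libraries by TMM and fitted age in a quasi-likelihood model of all 6 libraries; the common biological coefficient of variation was 0.187. Alternatives used other factors and filters, DESeq2 1.42.0, limma 3.58.1 (voom, and trend on log2 FPKM plus 1 or 0.1), the replicate block and each library left out. Shares were compared by exact permutation. The plan was to take lengths from the count table, which has none, so CPM was divided by exon length of GENCODE M21 (GRCm38), which also gave gene coordinates; lengths implied by the deposited FPKM were 1.00 to 1.11 times these. edgeR was tested on simulated data.

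The 5 genes and all lists were chosen with earlier results of these data known, and some listed genes are not reported here. Named genes were the 5, all tested HCN and pore genes, the 2 genes of each other list with the smallest p, 11 preset genes and the 2 closest profiles of each gene. Poisson intervals and the limits at 0 counts cover counting error only.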

Additional observations from a re-analysis of the deposited data

How the results depend on the processing

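Leaving out each library in turn gave 350 to 2961 genes higher and 184 to 2609 lower, against 1257 and 917 with all 6; both counts were highest without old 1. The log2 fold change ranged from −1.59 to −0.88 for Hcn2 (called without old 1 or old 2 only), from −1.79 to −0.000117 for Hcn4 (called without old 1 only), from −0.52 to 0.08 for Cacna1g (0.0752 without young 3) and from 0.32 to 0.54 for Cacna1h (called without old 1 only). The old minus young share ranged from −1.02 to 4.21 percentage points for Hcn4 (negative without old 1), from −0.0364 to 0.177 for Cacna1d (negative without young 1) and from 7.85 to 17.2 for Cacna1h. The cause of these changes was not tested. The filter of at least 1 CPM in 3 libraries removed Hcn4, and FPKM lacked Hcn4 and Cacna1d.

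The replicate number did not pair the hearts: deviations of same-numbered libraries correlated at −0.0867 to 0.0332, and 0 of 3 old libraries correlated best with their own number. With the replicate block 1774 genes were called, against 2174 without it, Hcn2 had −1.24, and no call among the 5 genes changed. At 3 to 27 reads per library, depth limits Hcn4.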

Other observations

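A list of the fetal cardiac programme holds 10 genes, among them 4 of the 5 channel genes. In old hearts 2 of the 10 were higher (Ankrd1 and, named after its values were seen, Myh7) and 2 lower (Acta1 and Hcn2). The median log2 fold change was 0.19, and 15.1% of all genes tested were called. Ankrd1, a stress-induced cofactor of heart muscle, rose to 2625, 1226 and 1184 CPM in old hearts, against 606, 547 and 711 CPM in young hearts (1.43 ± 0.29, edgeR adjusted p = 0.0135). Acta1, skeletal α-actin, fell to 208, 170 and 151 CPM in old hearts, against 290, 579 and 588 CPM in young hearts (−1.46 ± 0.26, edgeR adjusted p = 0.00835). Nppb, the brain natriuretic peptide gene, had 366, 156 and 158 CPM in old hearts and 104, 132 and 94.6 CPM in young hearts (1.04 ± 0.31, edgeR adjusted p = 0.0531). The call of Ankrd1 ended without young 1 or young 2. Without old 1 the list had 5 higher and 3 lower, where 37.9% of all genes tested were called. Without young 1 or young 2 the list had 0 higher and 1 lower.

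Among 9 smooth muscle and pericyte markers 0 were higher and 2 lower, against 15.1% of all genes tested called. The lower genes were Abcc9 (−0.66 ± 0.14, edgeR adjusted p = 0.0145) and Kcnj8 (−0.56 ± 0.12, edgeR adjusted p = 0.0196), which together form an ATP-sensitive potassium channel. Both calls ended without old 3 or any 1 young library. Without old 1 this list had 1 higher and 4 lower, where 37.9% of all genes tested were called. With the replicate block 5 of its genes were called, where 1774 genes were called over all genes. Without a filter on low counts 6 were called, where 1675 genes were called higher and 1182 lower over all genes. Among 9 heart muscle markers Myh6 (−0.75 ± 0.15) and Pln (−0.61 ± 0.15) were lower; the call of Myh6 ended without any 1 young library, and that of Pln without any 1 library other than old 1.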
